A study of Mus musculus with 20 samples.

Results

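The 7 cyclic nucleotide phosphodiesterase genes Pde2a, Pde3b, Pde4a, Pde4b, Pde4d, Pde7a and Pde8a were described in mouse CD4+ T cells with and without Tet2 and Tet3 in the Treg lineage. They were chosen by gene symbol from 19169 symbols listed in either of the deposited count tables, and with earlier results of these data known, so their adjusted p-values are no independent evidence of a pattern. The rule states no value and no threshold. A total of 20 genes of the phosphodiesterase family were listed, and the 7 members held between 92.6% and 98.1% of the family's summed TPM (a read-based level corrected for transcript length and library size) in every library.

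The study sequenced mRNA of sorted cells from 14-week-old C57BL/6 mice. WT mice carried Foxp3Cre, a YFP-Cre fusion knocked into the Foxp3 gene, so Cre is made in Foxp3-expressing cells. DKO mice carried Tet2/3 fl/fl Foxp3Cre, in which both genes are deleted in the cells that express Foxp3. Both genotypes therefore carried the Cre allele. From each genotype Treg cells and CD4+Foxp3- cells, sorted as CD4+YFP-, were taken. Spleen and peripheral lymph nodes (pLNs), pooled for each mouse, gave 2 libraries a group and 8 in all. Mesenteric lymph nodes (mLNs) gave 3 libraries a group and 12 in all. The DKO mice used for spleen and pLNs were 2 littermates that differed in the severity of their splenomegaly, and the labels do not tell which replicate is the more severely affected mouse. CD4+Foxp3- cells of DKO mice may hold former Treg cells.

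Cyclic nucleotide phosphodiesterases hydrolyse the second messengers cAMP and cGMP. Adenylyl cyclases make cAMP downstream of receptors coupled to Gs, and cAMP acts through protein kinase A, Epac exchange factors and CREB-family transcription factors. In T cells a rise in cAMP dampens signalling from the antigen receptor, and Treg cells are known for a high cAMP content and for low Pde3b, a gene that Foxp3 represses.

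The members differ in substrate. Pde2a splits both cAMP and cGMP and is stimulated by cGMP, whereas Pde3b splits cAMP and is held back by cGMP. Pde4a, Pde4b and Pde4d are cAMP-specific enzymes of the rolipram-sensitive group. Pde7a and Pde8a are cAMP-specific enzymes that rolipram does not block. The genes lie, on assembly NCBIM37 and with GENCODE M1 gene bounds, at chr7:108570212-108661340 on the plus strand for Pde2a, at chr7:121558795-121682765 on the plus strand for Pde3b, and at chr9:20970158-21017692 on the plus strand for Pde4a. Pde4b lies at chr4:101760148-102279864, Pde4d at chr13:109240142-110743669 and Pde8a at chr7:88358482-88479419, all on the plus strand. Pde7a lies at chr3:19123108-19211322 on the minus strand.

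Tet enzymes oxidise methylated cytosine in CpG dinucleotides, so promoter windows are shown for the member that fell in DKO Treg cells (Pde2a) and for the member with the highest TPM next to it in WT Treg cells (Pde4b). Methylation of these windows was not measured here, and its part in the level of any member was not tested. Each window runs from 250 bases before to 50 after a RefSeq transcription start and is printed 5′ to 3′ on the plus strand of NCBIM37 with CpG in capitals. The table of windows held 14 windows for 5 of the 7 members, and the windows of Pde3b and Pde7a were not analysed here. The 2 Pde2a windows are the richest and the poorest in CpG of its 5, at chr7:108599516-108599815 and chr7:108569955-108570254, and the Pde4b window is the richest of its 4, at chr4:102093910-102094209.
Pde2a window 4: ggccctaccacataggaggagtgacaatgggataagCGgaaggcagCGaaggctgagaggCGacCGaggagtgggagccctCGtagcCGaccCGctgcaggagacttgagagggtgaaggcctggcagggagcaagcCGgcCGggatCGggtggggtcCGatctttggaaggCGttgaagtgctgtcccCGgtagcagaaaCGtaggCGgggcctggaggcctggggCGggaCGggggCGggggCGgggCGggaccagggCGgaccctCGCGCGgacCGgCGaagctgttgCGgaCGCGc
Pde2a window 1: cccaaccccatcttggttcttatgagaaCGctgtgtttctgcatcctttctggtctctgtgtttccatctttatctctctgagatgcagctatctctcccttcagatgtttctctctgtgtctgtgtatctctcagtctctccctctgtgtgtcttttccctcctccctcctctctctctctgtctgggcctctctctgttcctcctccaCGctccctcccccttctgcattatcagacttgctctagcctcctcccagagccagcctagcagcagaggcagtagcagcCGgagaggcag
Pde4b window 1: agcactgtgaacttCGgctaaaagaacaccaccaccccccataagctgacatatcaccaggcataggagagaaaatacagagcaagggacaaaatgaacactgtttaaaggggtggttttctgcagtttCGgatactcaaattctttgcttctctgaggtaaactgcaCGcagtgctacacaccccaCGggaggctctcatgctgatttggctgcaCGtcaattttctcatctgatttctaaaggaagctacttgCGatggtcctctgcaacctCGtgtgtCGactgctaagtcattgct

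The Pde2a window 4 held 29 CpG, a number that 12.9% of all 32851 windows in the table reached, whereas the Pde2a window 1 held 3, which 76.7% reached. Members not called in DKO Treg cells had windows at least as rich as window 4 of Pde2a. Pde4a window 1 also held 29 CpG, and Pde8a window 1 held 34, which 7.73% reached. The printed Pde4b window held 8, against a median of 7 over all windows, and its 3 other windows held 2, 1 and 6. The cAMP response element TGACGTCA was in 0 of the 14 member windows, against 1.79% of all windows, and its core TGACG, searched on both strands and contained in the longer motif, was in 4 of the 14 against 20.8% of all windows. Reads were counted per gene over every start site, so the values below do not tell these start sites apart.

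Libraries of spleen and pLNs held 13525932 to 15253141 counted reads and those of mLNs 9998478 to 15449158, and a count of 3 equalled 0.172 to 0.299 CPM (counts scaled to library size after TMM normalization). Foxp3 was between 153 and 419 CPM in the Treg libraries and at most 2.75 CPM in the CD4+Foxp3- libraries. Tet2 and Tet3 were not called lower in DKO Treg cells, and their counts cover all exons, so they do not check the deletion. Some libraries stood apart. DKO replicates 1 and 2 of spleen and pLNs differed far more from each other (chi-square per gene 59.4 for Treg and 92.8 for CD4+Foxp3- cells) than WT pairs of both tissues did (3.83 to 8.89), and the second DKO CD4+Foxp3- library of mLNs also lay apart. For spleen and pLNs, the 6 Treg markers summed to 708 CPM in the first DKO CD4+Foxp3- library and 229 in the second, against 202 to 225 in WT. In mLNs they summed to 351 CPM in the second DKO CD4+Foxp3- library, against 184 at the lowest in DKO and 139.8 to 145 in WT. Called DKO effects on the members are given with and without these libraries. Without both DKO libraries numbered 1, each DKO group of spleen and pLNs holds 1 library and the spread comes from the WT pairs alone.

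Differences were tested with edgeR's quasi-likelihood test over all genes of a table, with Benjamini-Hochberg adjustment; a call needed an adjusted p no higher than 0.05 together with a change of 1.5-fold or more. In DKO Treg cells 1 of the 7 members was called in each tissue, and it was Pde2a, which fell. The background was 1.74% of 16357 genes called in spleen and pLNs, 0.605% of them lower, and 11.9% of 16784 genes in mLNs, 3.43% of them lower. The median log2 fold change of the 7 members was 0.54 in spleen and pLNs and 0.20 in mLNs, beside 0.02 and 0.00 over all genes. These medians depended on which libraries were in: without both DKO libraries numbered 1 the middle value of the 7 in spleen and pLNs was that of Pde7a, -0.011, and without both numbered 2 that in mLNs was Pde8a's, -0.053. Leaving out the second DKO Treg library of spleen and pLNs instead moved Pde3b and Pde4d up, to 1.62 and 1.24. A pair of libraries cannot show which of them stands apart. In bulk libraries of sorted cells, fewer cells of a type and less RNA per cell cannot be told apart.

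Pde2a, the dual-specificity enzyme stimulated by cGMP, measured 184, 194 and 189 CPM in WT Treg cells of mLNs. In the DKO Treg libraries it was at 33.8, 48.8 and 47.1 CPM. Every DKO library lay below every WT library, and Pde2a fell 4.37-fold (log2 fold change -2.13, SE 0.14, adjusted p = 1.13e-05), with a log2 fold change of -2.22 without both DKO libraries numbered 2 (adjusted p = 1.29e-09). The WT Treg libraries of spleen and pLNs held 133 and 132 CPM of Pde2a, and the DKO Treg libraries held 31.5 and 29.5. Again the groups were far apart, with a fall of 4.34-fold (log2 fold change -2.12, SE 0.30, adjusted p = 0.00572). This call was lost, at nearly the same fold, with a filter on low counts (adjusted p = 0.0853) and with a robust prior (adjusted p = 0.0814). Without both DKO libraries numbered 1, which leaves 1 DKO Treg library, the log2 fold change was -2.16. Without any one of 3 of the 4 Treg libraries of spleen and pLNs the fold change held at -2.17 to -2.12 on the log2 scale but the adjusted p rose to between 0.123 and 0.249. Without the second DKO Treg library Pde2a was still called (log2 fold change -2.08, adjusted p = 0.0270).

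In CD4+Foxp3- cells of mLNs Pde2a measured 145, 164 and 152 CPM in WT against 132, 95.0 and 127 CPM in DKO. The groups did not overlap, the gap was small, and the difference did not pass (log2 fold change -0.38, SE 0.14, adjusted p = 0.154). The WT libraries of spleen and pLNs held 159.6 and 143 CPM of Pde2a and the DKO libraries 53.1 and 125 CPM. The first DKO library was far below the others, and the difference did not pass (log2 fold change -0.77, SE 0.29, adjusted p = 0.256). Without both DKO libraries numbered 1 it was -0.28, below the required fold. With the second DKO CD4+Foxp3- library left out instead it was -1.51. Each of these fits leaves 1 DKO library of these cells. The first DKO library also had the highest Treg and activation marker sums (708 and 1982 CPM, against 229 and 744 in the second), the lowest naive marker sum (2142 against 4351 CPM) and the lowest Foxp3 (0.251 against 0.741 CPM). The same held for the mLN library with the lowest Pde2a, the second of DKO, with activation markers at 1525 CPM, naive markers at 4558 CPM and Foxp3 at 0.211 CPM, against 532 and 794, 6642 and 6015, and 2.75 and 1.33 CPM in the other two. Foxp3 thus went the other way from the sum of the list it belongs to, but on few reads. It had 4 counts against 10 in spleen and pLNs, and 3 against 31 and 15 in mLNs, where the floor is 3 counts. The part of these differences in the Pde2a levels was not tested.

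The DKO effect on Pde2a was set against itself in the other cell type with an interaction term. In mLNs the fall in Treg cells exceeded that in CD4+Foxp3- cells by 1.75 on the log2 scale (interaction -1.75, SE 0.20, adjusted p = 0.00604), and Pde2a was the 1 member of 7 that passed, against a background of 0.280% of genes. Without both DKO libraries numbered 2 the interaction was -1.97 (adjusted p = 2.54e-06). For spleen and pLNs the interaction of Pde2a was -1.35 (SE 0.41, adjusted p = 0.858), and 0 of 7 members passed, where the background was 0.00611%, a single gene. With an unadjusted p under 0.05 there were 4 members by edgeR, and DESeq2 called 0. Without the first DKO CD4+Foxp3- library of spleen and pLNs the Pde2a interaction was -1.84 (adjusted p = 6.90e-04), and without both DKO libraries numbered 1 it was -1.89 (adjusted p = 2.20e-13), with the spread then estimated from the WT pairs alone. Without the second DKO CD4+Foxp3- library it was -0.61 and did not pass.

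**Figure D1:**
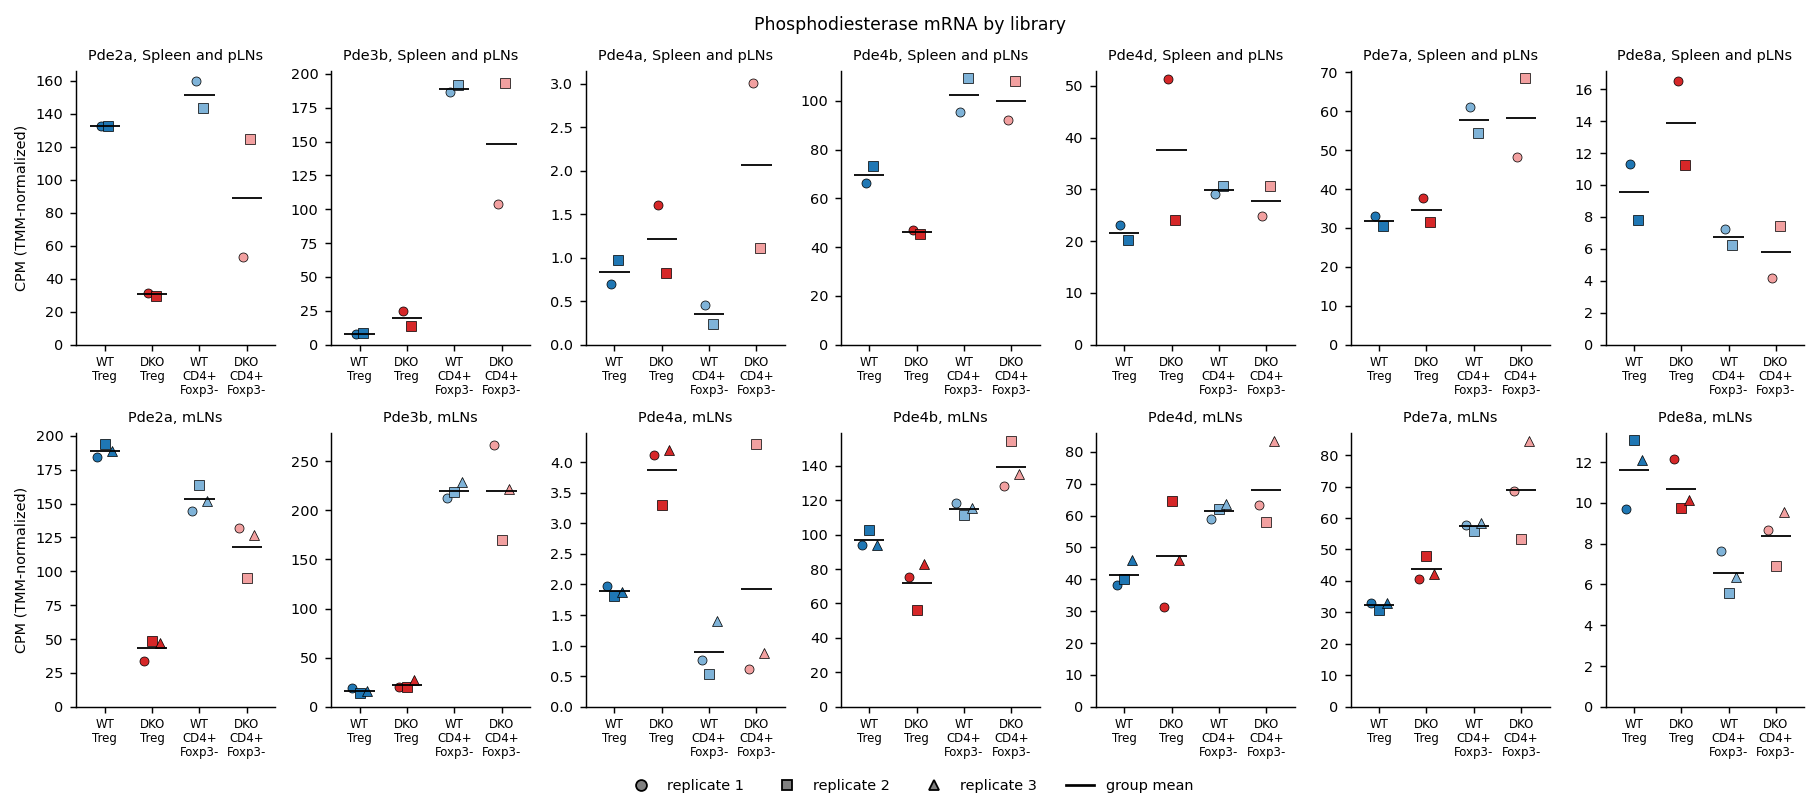
CPM of the 7 phosphodiesterases (TMM-normalized, linear axes from 0) in each library of WT and DKO Treg and CD4+Foxp3- cells; marker shape gives the replicate and the bar the group mean. In mLNs the DKO Treg libraries of Pde2a sit between 33.8 and 48.8 CPM, below all WT Treg libraries at 184 to 194, and Pde3b is low in every Treg library.

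Pde3b, the enzyme inhibited by cGMP, separated the cell types. In mLNs it was at 19.3, 14.3 and 15.7 CPM in WT Treg cells. In WT CD4+Foxp3- cells it was at 212, 219 and 229 CPM. No library of one type came near the other, and Pde3b was 13.3-fold lower in Treg cells (log2 fold change -3.74, SE 0.18, adjusted p = 1.10e-07). Spleen and pLNs gave 7.84 and 8.35 CPM in WT Treg cells and 186 and 192 CPM in WT CD4+Foxp3- cells, 23.3-fold lower in Treg cells (log2 fold change -4.54, SE 0.33, adjusted p = 2.20e-05).

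In DKO Treg cells of mLNs Pde3b was at 19.9, 20.3 and 27.2 CPM. All 3 values were above the WT values, narrowly for the lowest, and the difference did not pass (log2 fold change 0.45, SE 0.17, adjusted p = 0.0866). In DKO Treg cells of spleen and pLNs it was at 24.9 and 13.9 CPM, both above WT, with the first library the higher (log2 fold change 1.26, SE 0.31, adjusted p = 0.0616). DESeq2 called Pde3b here (1.28, adjusted p = 0.0117), as did edgeR with only the Treg groups fitted (1.26, adjusted p = 0.0176). By edgeR the log2 fold change was 1.62 without the second DKO Treg library and 0.78 without both DKO libraries numbered 1. Each of these fits leaves 1 DKO Treg library. Pde3b in DKO Treg cells stayed far below its level in CD4+Foxp3- cells of either genotype, where the lowest library held 104 CPM. In DKO CD4+Foxp3- cells of mLNs Pde3b was at 266, 170.2 and 222 CPM, on both sides of the WT values (log2 fold change 0.00, SE 0.15, adjusted p = 1). Those of spleen and pLNs held 104 and 193 CPM (log2 fold change -0.35, SE 0.28, adjusted p = 0.688), and without the second DKO CD4+Foxp3- library it was -0.86 (adjusted p = 0.0245).

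Among the rolipram-sensitive genes, Pde4b was at 93.7, 103 and 93.8 CPM in WT Treg cells of mLNs and at 75.5, 56.4 and 83.1 CPM in DKO Treg cells. The groups did not overlap. Its adjusted p was 0.0246, but the difference was 1.35-fold (log2 fold change -0.43, SE 0.12), under the fold required for a call. WT Treg libraries of spleen and pLNs held 66.2 and 73.3 CPM of Pde4b and the DKO Treg libraries 46.9 and 45.3 (log2 fold change -0.60, SE 0.15, adjusted p = 0.0692). Pde4b was called there with only the Treg groups fitted (-0.60, adjusted p = 0.0401). Without both DKO libraries numbered 1, which leaves 1 DKO Treg library, the log2 fold change was -0.62. The direction was the same in both tissues. Pde4b in CD4+Foxp3- cells of mLNs measured 118, 111 and 116 CPM in WT against 128, 154 and 135 CPM in DKO (log2 fold change 0.28, SE 0.12, adjusted p = 0.237), and in spleen and pLNs 95.6 and 109 CPM in WT against 92.2 and 108 CPM in DKO (log2 fold change -0.03, adjusted p = 1). In mLNs the difference of the DKO effects on Pde4b was -0.71 (SE 0.17, adjusted p = 0.110 by edgeR), DESeq2 gave an adjusted p of 0.0120 for the same value, and edgeR without both DKO libraries numbered 2 gave -0.47 (adjusted p = 0.0240).

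Pde4d was at 38.1, 40.0 and 46.0 CPM in WT Treg cells of mLNs and at 31.4, 64.6 and 46.1 CPM in DKO Treg cells. The DKO values lay on both sides of WT (log2 fold change 0.20, SE 0.21, adjusted p = 0.531). WT Treg cells of spleen and pLNs held 23.1 and 20.2 CPM of Pde4d and DKO Treg cells 51.4 and 24.0 CPM. The rise rested on the first DKO library (log2 fold change 0.80, SE 0.28, adjusted p = 0.140). Without both DKO libraries numbered 1 it was 0.15, while without the second DKO Treg library it was 1.24. The group means of Pde4d in CD4+Foxp3- cells were 61.6 ± 2.43 CPM in WT against 68.1 ± 13.4 in DKO (SD, n = 3 each) in mLNs, and 29.9 ± 1.14 and 27.7 ± 4.10 (SD, n = 2 each) in spleen and pLNs, and neither difference passed (adjusted p = 0.743 and 0.948).

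Pde4a was the lowest member. It was at 1.97, 1.82 and 1.87 CPM in WT Treg cells of mLNs and at 4.12, 3.31 and 4.19 CPM in DKO Treg cells. The groups did not overlap, yet the difference did not pass in the fit over the 4 groups (log2 fold change 1.03, SE 0.55, adjusted p = 0.218). With the 2 Treg groups fitted alone it did (1.04, adjusted p = 0.0116), as it did without both DKO libraries numbered 2 (1.14, adjusted p = 0.0155). Pde4a in CD4+Foxp3- cells of mLNs measured 0.766, 0.540 and 1.396 CPM in WT against 0.621, 4.29 and 0.884 CPM in DKO. The 4.29 CPM was in the DKO library that stands apart, and without it the log2 fold change was -0.20 (adjusted p = 0.988), against 1.16 (SE 0.61, adjusted p = 0.330) with it. Its levels in spleen and pLNs were 0.692 and 0.974 CPM in WT Treg, 1.60 and 0.819 in DKO Treg, 0.456 and 0.241 in WT CD4+Foxp3- and 3.01 and 1.11 in DKO CD4+Foxp3- cells. There too the first DKO library was the higher in each cell type, and neither DKO difference passed (adjusted p = 0.690 and 0.124). Without the second DKO CD4+Foxp3- library the latter was called (log2 fold change 3.07, adjusted p = 0.00391).

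Pde7a was at 32.9, 30.8 and 33.1 CPM in WT Treg cells of mLNs and at 57.8, 55.8 and 58.5 CPM in WT CD4+Foxp3- cells. The types did not overlap, and Pde7a was 1.78-fold lower in Treg cells (log2 fold change -0.83, SE 0.14, adjusted p = 0.00115). The same held in spleen and pLNs, with 33.0 and 30.4 CPM in WT Treg and 61.1 and 54.5 CPM in WT CD4+Foxp3- cells, 1.82-fold lower (log2 fold change -0.87, SE 0.19, adjusted p = 0.0222). This call was lost without any one of the 4 WT libraries (adjusted p from 0.158 to 0.312), with the replicate number as a block (0.0522), with the block nested in genotype (0.113) and with a filter on low counts (0.0635). In DKO Treg cells of mLNs Pde7a was at 40.7, 48.0 and 42.3 CPM, all above WT, with an adjusted p of 0.0380 and a 1.35-fold difference (log2 fold change 0.44, SE 0.14) that was under the fold required. DKO Treg libraries of spleen and pLNs held 37.7 and 31.4 CPM of Pde7a, overlapping WT (log2 fold change 0.12, SE 0.19, adjusted p = 0.741). The DKO means in CD4+Foxp3- cells were 68.8 ± 15.6 CPM (SD, n = 3) in mLNs and 58.3 ± 14.4 CPM (SD, n = 2) in spleen and pLNs, and neither differed from WT in the test (adjusted p = 0.314 and 1).

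Pde8a was the member called higher in Treg cells. In mLNs it was at 9.70, 13.1 and 12.1 CPM in WT Treg and at 7.66, 5.60 and 6.38 CPM in WT CD4+Foxp3- cells. The types did not overlap, and Pde8a was 1.78-fold higher in Treg cells (log2 fold change 0.83, SE 0.19, adjusted p = 0.00955). Leaving out the second WT library of either type ended the call (adjusted p = 0.0522 and 0.0539). The values in spleen and pLNs were 11.3 and 7.80 CPM in WT Treg and 7.22 and 6.27 CPM in WT CD4+Foxp3- cells, in the same order without passing (log2 fold change 0.50, SE 0.33, adjusted p = 0.612). In DKO Treg cells Pde8a was at 12.1, 9.77 and 10.2 CPM in mLNs, within the WT range, and at 16.5 and 11.3 CPM in spleen and pLNs, and neither difference from WT passed (adjusted p = 0.690 and 0.367). Without both DKO libraries numbered 1 the log2 fold change of Pde8a in spleen and pLNs was 0.25 (adjusted p = 0.436), against 0.54 with them. DKO CD4+Foxp3- cells held 8.69, 6.90 and 9.55 CPM of Pde8a in mLNs and 4.14 and 7.41 CPM in spleen and pLNs. In mLNs 2 of the 3 lay above every WT value and in spleen and pLNs they lay on both sides, and neither difference passed (log2 fold change 0.35 and -0.23, adjusted p = 0.341 and 0.826).

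Between WT Treg and WT CD4+Foxp3- cells, 3 of the 7 members were called in mLNs, where 10.1% of all genes were, and 2 of 7 in spleen and pLNs, where 4.0% were. Pde3b was lower in Treg cells in both tissues, Pde7a was lower in mLNs and, with the limits given above, in spleen and pLNs, and Pde8a was higher in mLNs. Pde2a, the member that fell in DKO Treg cells, did not pass between the WT cell types (log2 fold change 0.30, SE 0.14, adjusted p = 0.179 in mLNs; -0.19, SE 0.28, adjusted p = 0.848 in spleen and pLNs). The rolipram-sensitive genes did not pass either. Between the WT cell types the log2 fold change of Pde4b was -0.25 in mLNs and -0.55 in spleen and pLNs (adjusted p = 0.207 and 0.0694), that of Pde4d -0.57 and -0.47 (adjusted p = 0.0816 and 0.565) and that of Pde4a 1.10 and 1.23 (adjusted p = 0.284 and 0.558). In CD4+Foxp3- cells 0 of the 7 members were called between the genotypes by edgeR in either tissue, against 3.43% of all genes in mLNs and 0.819% in spleen and pLNs. In each tissue 2 members had an unadjusted p under 0.05, and DESeq2 called 0.

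**Figure D2:**
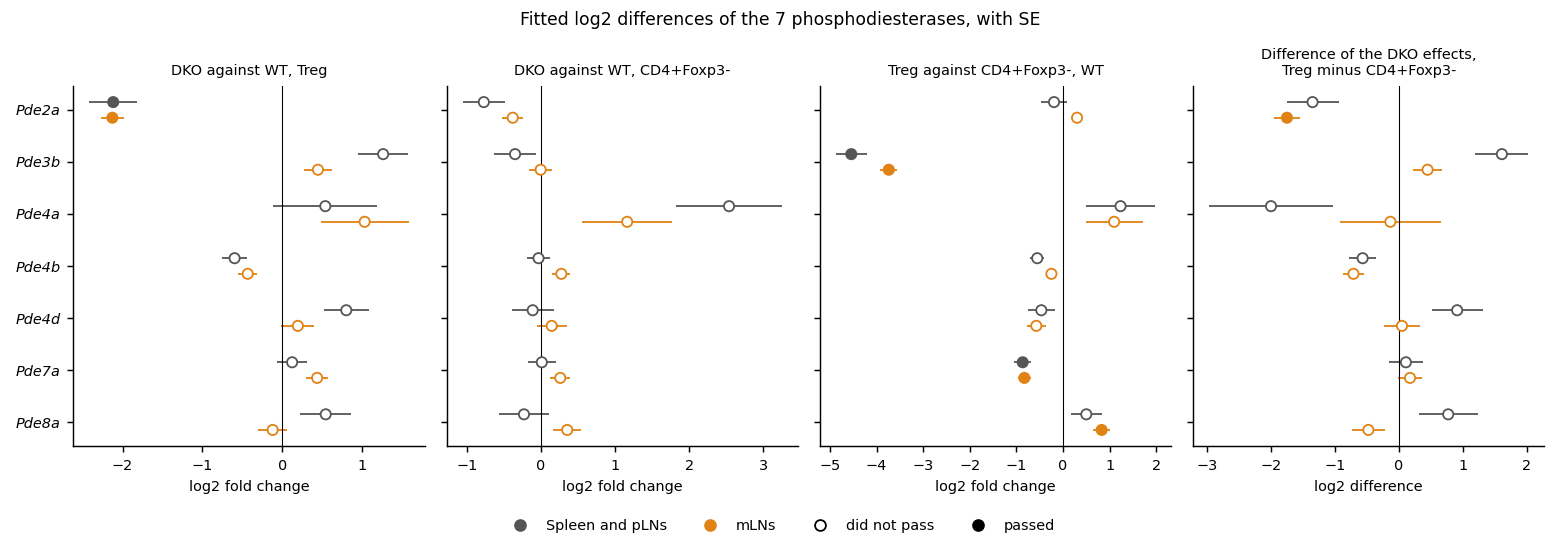
Fitted log2 fold changes, or log2 differences for the interaction, of the 7 phosphodiesterases with SE bars, in spleen and pLNs (grey) and mLNs (orange); filled points passed and open points did not. Pde2a lies at -2.12 and -2.13 in DKO against WT Treg cells, and Pde3b at -4.54 and -3.74 in WT Treg against CD4+Foxp3- cells.

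The order of the members was read from the deposited TPM, a scale per transcript length. In WT Treg cells of mLNs Pde2a stood first with 74.4 ± 3.81 TPM and Pde4b second with 29.3 ± 1.93 TPM (SD, n = 3). Pde4d, Pde7a, Pde8a and Pde3b followed between 10.7 and 5.67 TPM, each overlapping its neighbour, and Pde4a was last at 0.67 TPM. In DKO Treg cells of mLNs Pde4b was at 24.5 ± 5.12 TPM and Pde2a at 19.1 ± 3.07 TPM, and the values overlapped, with the second library keeping the WT order. In WT CD4+Foxp3- cells of mLNs Pde3b stood first with 69.8 ± 3.93 TPM, then Pde2a with 55.5 ± 4.72 and Pde4b with 31.9 TPM. In Treg cells of spleen and pLNs, Pde2a was at 43.9 ± 0.63 TPM (SD, n = 2) in WT, again first, and at 12.9 TPM in DKO, behind Pde7a at 17.9 and Pde4b at 14.2 TPM, with overlap among them. Pde3b at 50.02 TPM and Pde2a at 48.0 TPM headed the WT CD4+Foxp3- cells, and their values overlapped. Counts and TPM imply a length for Pde7a relative to Pde2a of 0.823 in the table of spleen and pLNs and 1.398 in that of mLNs, so the rank of Pde7a is not comparable between the tissues. Its place ahead of Pde2a in DKO Treg cells of spleen and pLNs also depends on the length used.

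Seen as shares, Pde2a held 51.7% ± 0.26 of the summed TPM of the 20 family genes in WT Treg cells of mLNs and 19.8% ± 2.63 in DKO Treg cells (SD, n = 3). Its shares in spleen and pLNs were 49.4% ± 0.47 and 17.0% ± 2.63 (SD, n = 2). No DKO Treg library reached a WT Treg library. For CD4+Foxp3- cells its share was 28.3% ± 1.45 in WT and 21.7% ± 1.15 in DKO mLNs, and 30.5% ± 1.79 and 21.6% ± 5.43 in spleen and pLNs, where the DKO libraries held 17.7% and 25.4%. Pde3b held 3.96% in WT Treg, 9.07% in DKO Treg, 35.6% in WT CD4+Foxp3- and 35.4% in DKO CD4+Foxp3- cells of mLNs. The shares of other members rise when Pde2a falls. Pde3b itself was at 5.67 TPM in WT and 8.76 TPM in DKO Treg cells of mLNs, and its difference in counts did not pass. The summed TPM of the family was 134.9 to 148.3 in WT Treg and 91.2 to 103.1 in DKO Treg libraries of mLNs, with no overlap. In spleen and pLNs it was 87.3 to 90.3 in WT Treg cells, and the DKO Treg libraries lay on both sides at 57.5 and 98.0.

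**Figure D3:**
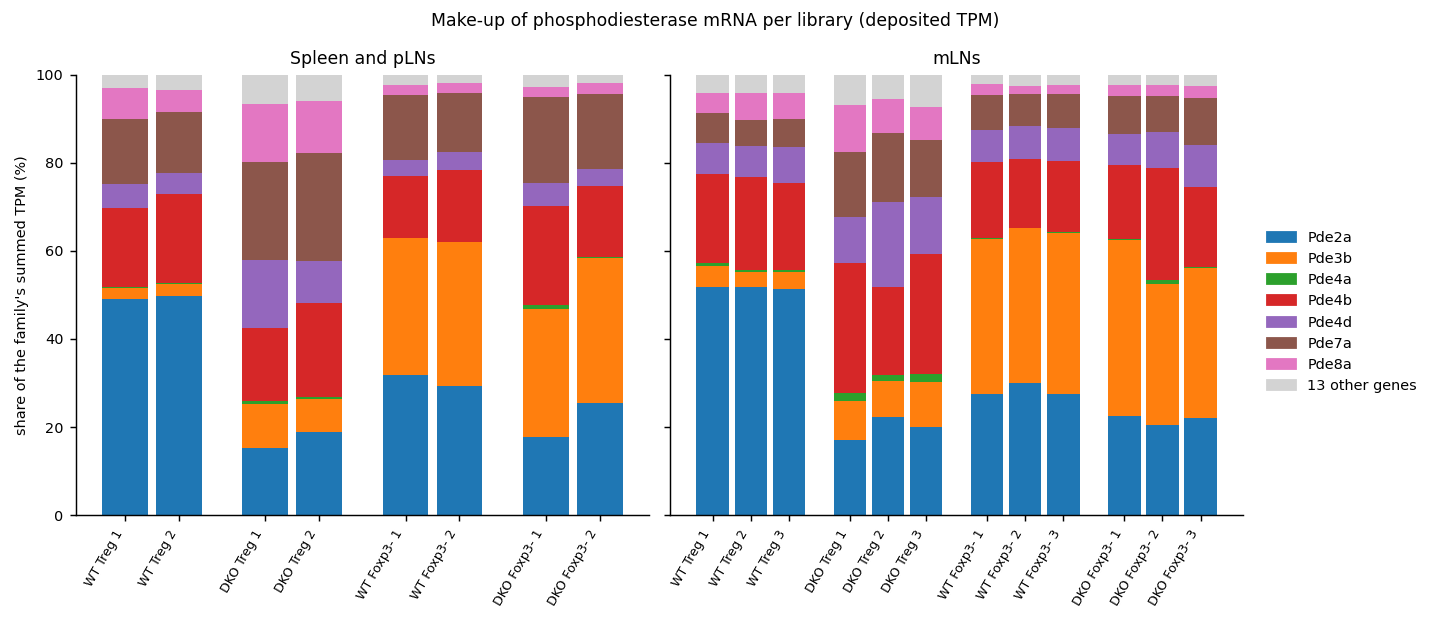
Share of the summed TPM of the phosphodiesterase family (%) held by each member and by the other family genes in every library, grouped by genotype and cell type, in spleen and pLNs and in mLNs. The Pde2a band takes about 51.7% in WT Treg and 19.8% in DKO Treg cells of mLNs, and the Pde3b band is wide in CD4+Foxp3- cells of both genotypes.

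Of the 13 other family genes in the tables, Pde1b, Pde4c, Pde5a and Pde11a reached a mean of 1 CPM in a group and the remaining 9 did not. Pde11a, a dual-specificity enzyme, was at 5.34, 5.29 and 4.33 CPM in WT Treg cells of mLNs and at 1.68, 2.37 and 2.68 CPM in DKO Treg cells. The groups did not overlap, and Pde11a fell 2.22-fold (log2 fold change -1.15, SE 0.24, adjusted p = 0.00536). Spleen and pLNs gave 3.00 and 3.83 CPM in WT against 2.23 and 2.18 CPM in DKO Treg cells, without passing (log2 fold change -0.63, SE 0.36, adjusted p = 0.355). Pde1b, activated by calcium and calmodulin, averaged 3.09 ± 0.679 CPM in WT against 3.90 ± 1.47 in DKO Treg cells of mLNs (SD, n = 3). Pde4c, of the rolipram-sensitive group, was at 1.03 and 1.54 CPM in the same groups, and Pde5a, specific for cGMP, at 1.17 and 1.93 CPM, and none of these 3 passed in any of the comparisons made with edgeR. Among the 9 below 1 CPM, Pde3a had counts of 0, 0 and 0 in WT and 13, 1 and 4 in DKO Treg cells of mLNs and was called higher there, and no fold is given since its WT libraries had no count. DESeq2 did not call Pde3a, and a filter on low counts removed it. In all, 3 of the 20 family genes were called in DKO Treg cells of mLNs, where 11.9% of all genes were (2 of 20 with DESeq2, without Pde3a), and 1 of 20 in spleen and pLNs, where 1.74% were.

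The rest of the cAMP and cGMP pathway was taken from lists made by gene function, which were not refitted without single libraries, and counts refer to DKO against WT Treg cells of mLNs by edgeR. In that comparison 11.9% of all genes were called, 8.5% higher and 3.43% lower, and a share of a list near these is no result about that list. Beginning upstream, 2 of 11 receptors coupled to Gs were called and both fell. Ptger4, a receptor for prostaglandin E2, averaged 109 ± 16.8 CPM in WT against 51.4 ± 5.92 CPM in DKO (SD, n = 3; log2 fold change -1.08, SE 0.14, adjusted p = 0.000400). The other was Vipr2, a receptor for vasoactive intestinal peptide, at 1.48 and 0.455 CPM. The median log2 fold change of the 11 receptors was -1.03, beside 0.00 over all genes; it includes Adora2b and Adrb1, both under 0.1 CPM. For spleen and pLNs 1 of 11 receptors was called, Calcrl, a receptor for calcitonin gene-related peptide and adrenomedullin, which fell (34.6 to 14.6 CPM, log2 fold change -1.24, adjusted p = 0.0307).

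Of the enzymes that make the messengers, 0 of 8 adenylyl cyclases were called by edgeR or DESeq2, with 2 at an unadjusted p under 0.05. Of 8 guanylyl cyclase genes 1 rose, Gucy1a3, a subunit of the soluble enzyme that senses nitric oxide, from 29.3 ± 2.36 to 98.2 ± 73.8 CPM (SD, n = 3; log2 fold change 1.74, SE 0.40, adjusted p = 0.00903). The spread in DKO was wide. Gucy1a3 also rose in DKO CD4+Foxp3- cells of mLNs (9.92 to 31.7 CPM, log2 fold change 1.67, SE 0.43, adjusted p = 0.0471) and of spleen and pLNs (6.02 to 38.3 CPM, log2 fold change 2.67, SE 0.47, adjusted p = 0.0295). Of 5 G protein alpha subunit genes 1 was called, Gnai1, which encodes an inhibitory subunit and had no count in any WT library of mLNs, so no fold is given. It was called higher in DKO CD4+Foxp3- cells of mLNs too (adjusted p = 0.0215).

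Of the effectors, 1 of 6 protein kinase A subunit genes rose, the regulatory subunit Prkar2a (20.2 ± 0.808 to 43.2 ± 4.57 CPM, SD, n = 3; log2 fold change 1.09, SE 0.20, adjusted p = 0.00256). Among 7 other effectors, Pkig, a protein kinase A inhibitor, rose from 0.888 to 5.24 CPM and Rapgef4, the exchange factor Epac2, fell from 8.53 to 2.73 CPM. Of 12 kinase A anchoring proteins 1 rose, Akap1 (5.44 to 10.98 CPM, log2 fold change 1.01, adjusted p = 0.00732). Both tools called 0 of 8 CREB-family factors, 0 of 8 phosphodiesterase partners and 0 of 2 cAMP exporters, with 1, 2 and 2 genes at an unadjusted p under 0.05.

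Among 10 genes known to be induced by cAMP, 2 rose and 1 fell. The nuclear receptor Nr4a2 rose from 3.89 ± 0.979 to 14.1 ± 4.36 CPM (SD, n = 3; log2 fold change 1.85, SE 0.34, adjusted p = 0.00244), and Areg, the growth factor amphiregulin, rose from 2.13 to 9.18 CPM. The salt-inducible kinase Sik1 fell from 45.8 ± 6.21 to 20.4 ± 6.38 CPM (log2 fold change -1.16, SE 0.25, adjusted p = 0.00655). Sik1 also fell in DKO CD4+Foxp3- cells of mLNs (38.2 to 18.7 CPM, log2 fold change -1.04, SE 0.25, adjusted p = 0.0398). Areg was called higher in DKO CD4+Foxp3- cells of both tissues (0.101 to 1.22 CPM in mLNs, adjusted p = 0.0356, and 0.0380 to 3.70 CPM in spleen and pLNs, adjusted p = 0.0299), with WT means under the floor. The median of the 10 was -0.16 in mLNs and 0.81 in spleen and pLNs. Of the genes called in mLN Treg cells in the lists of cyclases, G proteins, effectors, anchoring proteins and cAMP-induced genes, edgeR called 0 in Treg cells of spleen and pLNs, where Gucy1a3 was at 0.79 on the log2 scale (adjusted p = 0.324), Prkar2a at 0.64 (adjusted p = 0.0770), Akap1 at 1.39 (adjusted p = 0.110), Nr4a2 at 2.47 (adjusted p = 0.0557) and Sik1 at 0.95 (adjusted p = 0.2005), the last in the direction opposite to mLNs. At an unadjusted p under 0.05 were Prkar2a, Akap1, Nr4a2 and Sik1 of these 5, and DESeq2 called Prkar2a and Nr4a2. For the interaction edgeR called 0 genes of these lists in either tissue, while DESeq2 called Ptger4 in mLNs, and the lists held up to 3 genes each at an unadjusted p under 0.05.

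**Figure D4:**
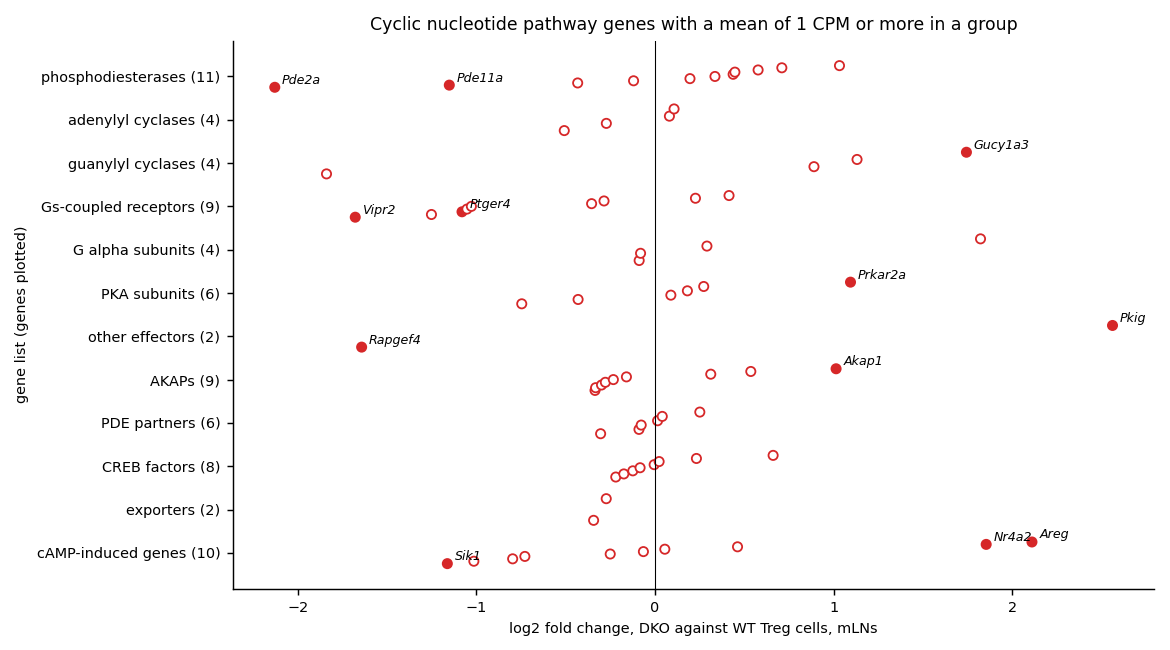
Log2 fold change in DKO against WT Treg cells of mLNs for each gene of the cyclic nucleotide lists whose mean reached 1 CPM in any group; filled points passed and open points did not. The 11 phosphodiesterases plotted are led by Pde2a at -2.13, and of the Gs receptors Vipr2 and Ptger4 passed, the latter at -1.08.

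Beside these changes the sorted Treg populations differed in marker levels. In mLNs the 7 naive T cell markers summed to 3183 to 3704 CPM in WT against 1967 to 2701 in DKO Treg libraries, and the 6 activation markers to 862 to 912 and 1563 to 1786. The 6 Treg markers summed to 1946 to 2111 CPM in WT against 1508 to 1704 in DKO. The 8 myeloid markers summed to 2.85 to 4.77 CPM in WT (with Cd14 and Itgax at 0) and 14.9 to 54.7 in DKO, and the 4 NK cell markers to 9.54 to 11.4 CPM in WT (with Klra8 at 0) and 74.9 to 162 in DKO. The 2 CD8 markers summed to 16.0 to 20.8 CPM in WT and 2.95 to 3.94 in DKO, and the 4 plasma cell markers to 153 to 159 CPM in WT and 124 to 579 in DKO. In spleen and pLNs the Treg markers summed to 1613 to 1763 CPM in WT and 1618 to 1737 in DKO Treg libraries, which overlapped, and the activation markers to 859 to 968 and 1024 to 1131. The naive markers there summed to 2971 to 3211 CPM in WT against 1937 to 2397 in DKO Treg libraries, the myeloid markers to 2.92 to 4.87 against 12.2 to 33.3 and the NK cell markers to 8.84 to 9.99 against 91.3 to 125. The sum of the 6 B cell markers went from 28.2 to 30.5 CPM in WT there to 11.1 to 16.6 in DKO, as Cd79b fell from 27.5 to 6.46 CPM, while the median log2 fold change of the list was 1.60; in mLNs the sums were 27.4 to 36.4 and 27.8 to 73.5 CPM and the median 2.70. In spleen and pLNs CD8 markers summed to 17.2 to 19.7 CPM in WT and 6.70 to 9.42 in DKO. Their part in the levels of Pde2a and of the other members was not tested.

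For each member the 2 genes closest in pattern were taken from 8511 genes by the mean Pearson correlation of log2 CPM over the 12 mLN and the 8 spleen and pLN libraries. The points share groups of a few libraries, so these values are descriptions. Pde2a ran closest to the zinc finger gene Zfp68 (r = 0.957 in mLNs and 0.964 in spleen and pLNs) and to Peg13 (0.913 and 0.970). Pde3b ran closest to Pdlim4 (0.966 and 0.987) and Gramd1a (0.988 and 0.960). For Pde4b these were Zfp60 (0.919 and 0.922) and Tgfbr3 (0.858 and 0.972), and for Pde7a Klrd1 (0.955 and 0.919) and Mettl9 (0.928 and 0.929). For Pde4a they were Ncs1 (0.915 and 0.928) and Tmco3 (0.899 and 0.931), for Pde4d Zfp628 (0.864 and 0.988) and Zfp36l2 (0.773 and 0.918), and for Pde8a Nlrp1a (0.849 and 0.946) and Slc43a2 (0.759 and 0.945).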

How the data were processed

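Polyadenylated RNA of sorted cells was sequenced with a stranded kit in 20 libraries. The authors aligned the reads to mm9 with TopHat2 2.1.1, allowing 1 alignment for a read, and assigned them to RefSeq genes by strand with featureCounts (Subread 1.4.3-p1). The deposited counts are raw. For the deposited TPM the authors used gene lengths that are not given in the sources used here; TPM were used only for levels between genes. All columns were used, 0 had no sample, and each tissue's table was analysed on its own.

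Counts were normalized by TMM and tested with edgeR 4.0.16 (limma 3.58.1, R 4.3.3), quasi-likelihood, with all 4 groups per tissue fitted together, no replicate block and genes with at least 1 count in total. Of 16740 genes listed for spleen and pLNs 16357 were tested, and all 16784 of mLNs. A call needed a Benjamini-Hochberg adjusted p no higher than 0.05 together with a change of 1.5-fold or more, and for the interaction the adjusted p alone. SE is the fold change divided by the square root of F. The scripts were tested on simulated data. DESeq2 1.42.0 and other settings were alternatives. The floor is 3 counts and covers counting error only. Replicates are separate samples in the labels, so p-values measure the spread between samples.

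The 7 members and all gene lists were chosen with earlier results of these data known. Named beside the members are family genes whose mean reached 1 CPM in a group, and up to 3 called genes a list with at least 10 CPM in the higher group in mLNs, those changed most first. Called genes below that level (Vipr2, Gnai1, Pkig, Rapgef4, Areg, Pde3a) and Calcrl, called in the other tissue, are named to account for the counts and were chosen after their values were seen. Genes of like pattern had at least 5 CPM in both tables and a prior count of 2 on the log2 scale. Where same-numbered libraries of 2 cell types of one genotype were compared, deviations from group means correlated at 0.110 to 0.390 in mLNs. Differently numbered ones correlated at -0.357 to 0.160, and same-numbered libraries of a cell type between genotypes at -0.0170 to 0.114. These ranges overlap, so the numbers may pair the cell types there, and the main tests used no block. Sequences are RefSeq promoter windows on NCBIM37, and gene bounds are from GENCODE M1, not the annotation used for counting.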

Additional observations from a re-analysis of the deposited data

Results flagged for a closer look

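The DKO effect on Pde2a differed between the cell types of mLNs. The log2 fold change was -2.13 (SE 0.14) in Treg cells, with all 3 DKO libraries below all 3 WT libraries, and -0.38 (SE 0.14) in CD4+Foxp3- cells. The test of the difference itself gave -1.75 on the log2 scale (SE 0.20, adjusted p = 0.00604, edgeR's interaction of genotype and cell type). Leaving out 1 library at a time gave -1.91 to -1.60 with adjusted p from 1.99e-05 to 0.0408. In spleen and pLNs the same difference was -1.35 and did not pass (adjusted p = 0.858).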

How the results depend on the processing

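The number of members called moved with the processing mostly in spleen and pLNs, where each group has 2 libraries. For DKO against WT Treg cells there it was 1, and became 2 with DESeq2 (Pde3b added), 0 with a filter on low counts, 0 with a robust prior, 3 with only the Treg groups fitted and 3 without both DKO libraries numbered 1 (chosen after seeing the data). Pde2a kept -2.11 and -2.12 under the filter and the robust prior, at adjusted p = 0.0853 and 0.0814. For WT Treg against CD4+Foxp3- cells it was 2 and became 1 with the filter, where Pde7a had an adjusted p of 0.0635. With the replicate block it was 1, and 1 with the replicate block nested in genotype, as Pde7a lost its call (adjusted p = 0.0522 and 0.113). The block changed no other member's call in either tissue. For the interaction it was 0 and became 3 without both DKO libraries numbered 1 (Pde2a, Pde3b and Pde4b). In mLNs it was 1 in Treg cells, 2 with only those groups fitted and 2 without both DKO libraries numbered 2; 3 between WT cell types, 5 with only those groups fitted (Pde4a and Pde4d added); and 1 for the interaction, 2 with DESeq2 and 2 without both DKO libraries numbered 2 (Pde4b added).

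Leaving out 1 library at a time gave, in spleen and pLNs, 0 to 3 members in Treg cells, 0 to 3 in CD4+Foxp3- cells, 1 to 1 between WT cell types and 0 to 1 for the interaction, and in mLNs 2 to 3 between WT cell types, 1 to 2 for the interaction, 1 in Treg and 0 in CD4+Foxp3- cells.

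No value that turned its sign had passed the test with all libraries in, though Pde3b in CD4+Foxp3- cells of spleen and pLNs passed without the second DKO library (-0.86, adjusted p = 0.0245). Pde3b in CD4+Foxp3- cells of mLNs was 0.0037 with DESeq2's size factors, 0.0038 with DESeq2 and 0.14 without both DKO libraries numbered 2. Without those libraries Pde4a was -0.21 in CD4+Foxp3- cells, Pde4d was -0.094 in Treg cells, and the interactions of Pde4a, Pde4d and Pde7a were 1.35, -0.34 and -0.042; the nested block gave 0.18 for Pde4a. In spleen and pLNs without both DKO libraries numbered 1, Pde4a was -0.030 and Pde7a -0.011 in Treg cells, Pde3b 0.034, Pde4b 0.082, Pde4d 0.038 and Pde8a 0.14 in CD4+Foxp3- cells, and the Pde7a interaction -0.26. With 1 library left out, these ran in spleen and pLNs from -0.031 to 0.93 (Pde4a) and -0.018 to 0.25 (Pde7a) in Treg cells, -0.86 to 0.027 (Pde3b), -0.15 to 0.074 (Pde4b), -0.27 to 0.030 (Pde4d), -0.26 to 0.24 (Pde7a) and -0.70 to 0.13 (Pde8a) in CD4+Foxp3- cells, and -0.12 to 0.39 for the Pde7a interaction. In mLNs they ran from -0.097 to 0.42 (Pde4d) in Treg cells, -0.16 to 0.16 (Pde3b), -0.20 to 1.60 (Pde4a) and -0.025 to 0.26 (Pde4d) in CD4+Foxp3- cells, and -0.59 to 1.21 (Pde4a), -0.24 to 0.28 (Pde4d) and -0.010 to 0.35 (Pde7a) for the interaction. The cause was not tested.

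Over all genes of spleen and pLNs the number called was 285 in Treg cells (24 with the filter, 114 with the robust prior, 648 with DESeq2, 1256 with only those groups fitted, 1283 without both DKO libraries numbered 1, 4 to 1696 with 1 library left out), 134 in CD4+Foxp3- cells (1, 19, 376, 1, 411, 1 to 2751), 654 between WT cell types (379 with the filter, 360 with the nested block, 2060 with only those groups, 144 to 198) and 1 for the interaction (0 with the filter, 3 with the robust prior, 11 with DESeq2, 412 without both DKO libraries numbered 1, 0 to 674). In mLNs it was 2001 in Treg cells (1325 to 1946 with 1 library left out), 575 in CD4+Foxp3- cells (323 with the robust prior, 929 with DESeq2, 2 with only those groups, 57 to 1453), 1687 between WT cell types (2544 with only those groups, 1149 to 1263) and 47 for the interaction (118 with the nested block, 409 with DESeq2, 538 without both DKO libraries numbered 2, 9 to 462). Where a group is left with 1 library, it is assumed to vary like the others. Shares of the family over the 7 members alone put Pde2a in WT Treg cells at 51.1% in spleen and pLNs and 54.0% in mLNs.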
